A study of Mus musculus with 12 samples.

Results

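Expression of 9 genes that sense, admit, buffer and extrude calcium in the distal nephron was examined in mouse kidney after daily cannabidiol (CBD). The genes are Slc8a1, Calb1, Trpv5, Trpv6, S100g, Atp2b1, Atp2b4, Casr and Pvalb, taken by symbol from the Ensembl identifiers, and they are 9 of the 57180 genes in the count files and 9 of the 17163 genes tested. Slc8a1 had been selected on its lower expression at the dose of 20 mg CBD/kg b.w. than in the control group (adjusted p = 0.034 with edgeR's quasi-likelihood test), so its differences between groups are given as a description. Calb1, at an adjusted p of 0.168 with edgeR's quasi-likelihood test, lay nearest outside the threshold of 0.1. The other members were listed for their roles, but with results of these libraries known, so their p-values are no independent support for a change of the pathway.

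In the distal convoluted and connecting tubules, calcium crosses the cell itself rather than passing between cells, and this step sets the final amount lost in the urine. The channels Trpv5 and Trpv6 admit calcium from the tubular fluid, calbindins carry and buffer it inside the cell, and the sodium-calcium exchanger NCX1 (gene Slc8a1) and the plasma membrane calcium pumps (Atp2b genes) release it to the blood side. Parathyroid hormone and active vitamin D stimulate this route, and the calcium-sensing receptor Casr, most abundant in the thick ascending limb, adjusts calcium transport to the calcium level of the blood.

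All 12 mice were male C57BL/6J, 4 in each group, with 1 kidney poly(A) library per mouse. The control group received the vehicle, saline with Tween, by daily intraperitoneal injection for 28 days, and the other groups received 10 or 20 mg CBD/kg b.w. in that vehicle (below, the 10 mg group and the 20 mg group). No allele was altered in any group. The libraries were made from scrapes of whole kidney tissue, so fewer cells of a tubule segment and less RNA per cell cannot be told apart.

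Between 15417867 and 23532088 counts fell on genes in each library, and mitochondrial genes took 3.53 to 23.4% of them. In 4 libraries this share was under 10% (1 control, 2 of the 10 mg group and 1 of the 20 mg group), and several results that move without them are given both ways. Marker genes of the distal convoluted tubule and of the connecting tubule and collecting duct were detected in every library, with summed levels of 1419 to 2312 and 351 to 546 CPM (counts scaled to library size, with edgeR's TMM factors). Genes were called at an adjusted p under 0.1 over all genes tested.

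The sequences upstream of Slc8a1, Trpv5 and S100g are shown so that 1 promoter window of the exchanger can be set beside those of an entry channel and a calbindin. Annotated starts of Slc8a1 lie in 3 clusters far apart, and which of them the kidney uses was not tested. Windows of 250 bases before a RefSeq transcript start (table of assembly GRCm38.p6) are written on the gene's strand, the minus strand for all 3. The last 75 bases of this window for Slc8a1, 46 for Trpv5 and 22 for S100g lie inside the gene as GENCODE annotates it, from another start, and are not printed. The printed bases are GRCm39 chr17:82045892-82046066 for Slc8a1, chr6:41657704-41657907 for Trpv5 and chrX:161747618-161747845 for S100g. Capitals mark matches to 4 motifs, searched on both strands, which do not overlap here. The E-box of clock factors is spelled CACGTG, and the D-box of the clock output factor Dbp and its relatives is spelled TTATGTAA. The core shared by sites of many nuclear receptors, the vitamin D receptor among them, was searched as AGGTCA, and the TATA box as TATAAA.
Slc8a1 upstream: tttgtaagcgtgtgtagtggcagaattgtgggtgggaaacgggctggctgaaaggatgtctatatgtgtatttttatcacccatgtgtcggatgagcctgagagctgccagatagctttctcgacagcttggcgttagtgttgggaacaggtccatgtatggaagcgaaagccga
Trpv5 upstream: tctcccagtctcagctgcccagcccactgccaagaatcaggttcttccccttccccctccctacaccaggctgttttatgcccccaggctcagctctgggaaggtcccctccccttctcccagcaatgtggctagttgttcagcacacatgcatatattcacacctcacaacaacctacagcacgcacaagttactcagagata
S100g upstream: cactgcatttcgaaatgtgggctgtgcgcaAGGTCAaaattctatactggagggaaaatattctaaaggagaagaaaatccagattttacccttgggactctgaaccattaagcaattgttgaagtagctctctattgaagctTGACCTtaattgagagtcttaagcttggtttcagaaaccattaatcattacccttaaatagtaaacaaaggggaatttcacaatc
Slc8a1 held 0 matches in its window of 250 bases. Trpv5 held a TATA box 43 to 38 bases before the RefSeq start, in the part that lies inside the GENCODE gene. S100g held 2 receptor cores, beginning 220 and 107 bases before the RefSeq start and both printed. RefSeq promoters were found for 8 of the 9 members (10 promoters), without Calb1. Among these 10, the receptor core occurred in those of Trpv6 and S100g and the TATA box in that of Trpv5, while the E-box and the D-box occurred in 0. Over all 32851 promoters of the same length, the receptor core was found in 14.02%, the TATA box in 12.37%, the E-box in 6.021% and the D-box in 0.8188%. A match describes letters only, and windows without one say nothing of a factor.

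Slc8a1 (ENSMUSG00000054640; GRCm39 chr17:81680534-82045891, minus strand) encodes the exchanger that moves calcium out against sodium at the blood side of the cell. In the control group its expression was 91.0, 89.6, 74.2 and 93.3 CPM in mice 1 to 4. It was 48.8, 69.6, 50.6 and 66.8 CPM in the 10 mg group, and 47.0, 55.9, 39.4 and 48.1 CPM in the 20 mg group. Every treated mouse lay below every control mouse, and the treated groups overlapped each other. Means were 87.0 ± 8.68 CPM (SD, n = 4) in the control group, 58.9 ± 10.8 (SD, n = 4) at 10 mg and 47.6 ± 6.76 (SD, n = 4) at 20 mg. The log2 difference from the control group was -0.56 at 10 mg (SE 0.146) and -0.87 at 20 mg (SE 0.147), the latter a level lower by a ratio of 0.547 (95% interval 0.440 to 0.680). Between the doses the log2 difference was -0.31 (95% interval -0.62 to 0.01).

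The low value of Slc8a1 in the 10 mg group stood partly in its 2 libraries of low mitochondrial share, which held 48.8 and 50.6 CPM against 66.8 and 69.6 in the other 2. Without the 4 libraries of low share, the log2 difference was -0.34 at 10 mg and -0.77 at 20 mg. The call that selected Slc8a1 at 20 mg held in 9 of 12 fits that left out 1 library, and adjusted p of edgeR's test was 0.11 without control mouse 1, 0.111 without control mouse 2 and 0.134 without control mouse 4. The gene has 7 annotated transcripts with starts in 3 clusters far apart, which counts per gene do not separate. It overlaps 4 other annotated genes, 3 of them on the opposite strand, and the strand setting of the counting is not given in the sources used here.

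**Figure D1:**
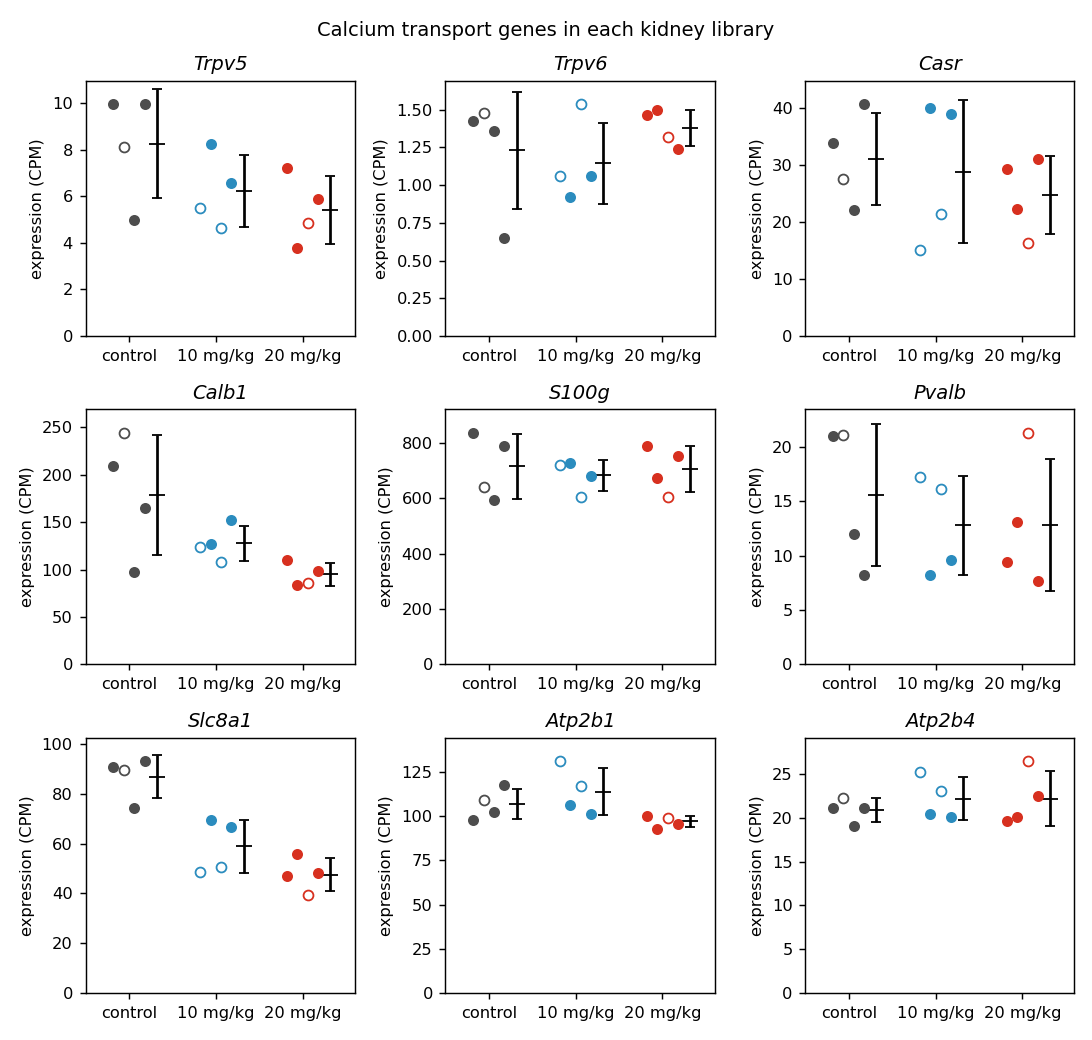
Expression of the 9 genes (CPM, linear axes from 0) in every library by group, with black bars for the mean ± SD of 4 mice and open circles for libraries with under 10% of counts on mitochondrial genes. For Slc8a1, treated mice (39.4 to 69.6 CPM) sit below control mice (74.2 to 93.3 CPM), and for Casr the open circles sit low within each treated group.

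Neither plasma membrane pump was called at either dose. Atp2b1 (ENSMUSG00000019943; chr10:98750268-98862488), the most widely expressed pump, was at 97.9, 109, 102 and 117 CPM in control mice, 131, 106, 117 and 101 in the 10 mg group and 100.2, 93.0, 99.1 and 95.7 in the 20 mg group. Groups treated with CBD overlapped the control group at both doses. The log2 difference was 0.10 at 10 mg (SE 0.111) and -0.14 at 20 mg (SE 0.112), with adjusted p of 0.936 and 0.805 (edgeR). Between the doses all 4 mice of the 20 mg group lay below all 4 of the 10 mg group, with a log2 difference of -0.23 (SE 0.112, adjusted p = 0.789 with edgeR, exact permutation p = 0.0286, two-sided, the smallest that 4 against 4 allow). Over all genes tested, 3.1% had groups that did not overlap in this comparison. The highest 2 values of the 10 mg group were those of its libraries of low mitochondrial share, and without the 4 such libraries the difference between the doses was -0.10 on the log2 scale. Atp2b4 (ENSMUSG00000026463; chr1:133627195-133728923), a second pump of the family, ranged from 19.1 to 26.5 CPM over all 12 mice, with log2 differences of 0.09 at 10 mg and 0.08 at 20 mg (SE 0.128 and 0.129, adjusted p 0.943 and 0.91 with edgeR). Its 95% interval at 20 mg ran from -0.19 to 0.36.

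Among the calcium-binding proteins, none was called, with lower means of Calb1 in both treated groups and close means of S100g. Calb1 (ENSMUSG00000028222; chr4:15881155-15908085) encodes calbindin-D28k, the main calcium buffer of the distal convoluted and connecting tubule. Its expression was 209, 244, 97.9 and 165 CPM in control mice, 124, 127, 108 and 152 in the 10 mg group and 111, 84.3, 86.4 and 98.9 in the 20 mg group. Control mouse 3 lay at the level of the 20 mg group, so that the groups overlapped. The mean was 179 ± 63.1 CPM (SD, n = 4) in the control group, 127.7 ± 18.3 at 10 mg and 95.04 ± 12.2 at 20 mg. The log2 difference was -0.49 at 10 mg (SE 0.216, adjusted p = 0.843 with edgeR) and -0.91 at 20 mg (SE 0.217, adjusted p = 0.168 with edgeR). Neither passed the threshold, and the exact permutation test gave two-sided p of 0.229 and 0.0857. The 95% interval at 20 mg ran from -1.38 to -0.45. Without control mouse 3 it was -1.12 and was called (adjusted p = 0.0191, edgeR), and DESeq2 called it on all libraries (adjusted p = 0.0134), where 1.13% of genes tested were called. Without the 4 libraries of low mitochondrial share the log2 difference was -0.17 at 10 mg and -0.68 at 20 mg.

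Adipocyte genes (Adipoq, Plin1, Cfd, Fabp4 and Lep), markers of fat that can adhere to kidney tissue, were also highest in the control mice with the highest Calb1. Their summed level was 209, 259, 96.0 and 229 CPM in control mice, 135, 126, 67.8 and 89.7 in the 10 mg group and 67.9, 114, 92.1 and 104.0 in the 20 mg group. Fabp4 made up most of this sum, with means of 149.3, 88.9 and 89.2 CPM in the same order of groups. The order of mice by the sum is therefore mainly an order by Fabp4 in the treated groups. Control mouse 3 was the lowest of its group both for this sum and for Calb1. Within the 20 mg group the order was otherwise, since mouse 1 had the highest Calb1 and the lowest sum and mouse 2 the lowest Calb1 and the highest sum, and in the 10 mg group mouse 4 had the highest Calb1 but a sum below those of mice 1 and 2. All 4 of the tested adipocyte genes were lower at 20 mg at an unadjusted p under 0.05, against 8.45% of all genes in either direction, and 0 were called. Lep, a defining fat-cell hormone, reached 1.24 CPM at most, and Adipoq averaged 11.3 CPM in the control group against 1.04 at 20 mg. Cfd averaged 33.3 against 3.68 CPM and Plin1 3.77 against 0.65 CPM in these 2 groups of adipocyte gene values. The part of the adipocyte genes in the level of Calb1 was not tested.

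**Figure D2:**
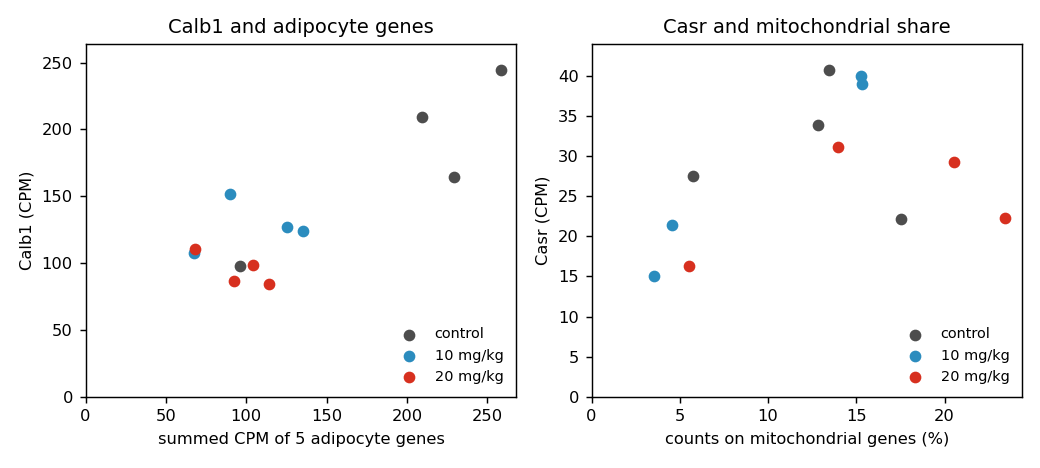
Left, Calb1 (CPM) against the summed CPM of 5 adipocyte genes, and right, Casr (CPM) against the percent of counts on mitochondrial genes, 1 point per mouse, coloured by group. The other control mice lie apart at high values of both measures on the left while control mouse 3 (96.0 CPM of adipocyte genes) lies among treated mice, and on the right the 4 libraries under 10% have 15.0 to 27.5 CPM of Casr.

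S100g (ENSMUSG00000040808; chrX:161744988-161747617), which encodes the smaller calbindin-D9k, was at 593 to 838 CPM in the control group, 605 to 729 at 10 mg and 605 to 790.2 at 20 mg, so that all groups overlapped. The log2 difference at 20 mg was -0.02 (SE 0.144, adjusted p = 0.989 with edgeR), with a 95% interval of -0.33 to 0.29. The gene overlaps Ctps2 on the opposite strand. Pvalb (ENSMUSG00000005716; chr15:78075314-78091149) encodes parvalbumin, a calcium buffer of the early distal convoluted tubule and also of fast skeletal muscle. It varied from 8.21 to 21.0 CPM in the control group, from 8.18 to 17.2 at 10 mg and from 7.62 to 21.3 at 20 mg. The log2 difference was -0.28 at either dose (SE 0.348 and 0.350, adjusted p 0.937 and 0.885 with edgeR), and its 95% interval at 20 mg ran from -1.03 to 0.46. Skeletal muscle genes (Ckm, Acta1, Myh4, Actn3 and Tnnt3) summed to no more than 2.21 CPM in any library. The 4 libraries of low mitochondrial share had 16.1 to 21.3 CPM of Pvalb, and the other 8 had 7.62 to 21.0. Without those 4 the log2 difference of Pvalb was -0.64 at 10 mg and -0.46 at 20 mg.

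The entry channels are neighbours on chromosome 6. Trpv5 (ENSMUSG00000036899; chr6:41629107-41657703) is the main calcium channel of the luminal membrane in these segments. It was at 9.95, 8.11, 4.99 and 9.95 CPM in control mice, 5.48, 8.25, 4.65 and 6.57 in the 10 mg group and 7.20, 3.77, 4.86 and 5.87 in the 20 mg group. Control mouse 3 was again the lowest of its group, and both treated groups overlapped the control group. The log2 difference was -0.41 at 10 mg (SE 0.251, adjusted p = 0.892) and -0.60 at 20 mg (SE 0.253, adjusted p = 0.533), both with edgeR and neither called. Without the 4 libraries of low mitochondrial share it was -0.17 at 10 mg. Trpv6 (ENSMUSG00000029868; chr6:41597558-41613343), the channel better known from the intestine, lay between 0.65 and 1.54 CPM (12 to 34 counts per library). Its log2 difference was -0.10 at 10 mg and 0.16 at 20 mg (SE 0.290 and 0.289, adjusted p 0.98 and 0.929 with edgeR). The 95% interval at 20 mg ran from -0.46 to 0.77. Trpv6 also overlaps Ephb6 on the opposite strand.

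Casr (ENSMUSG00000051980; chr16:36310949-36382503), the receptor that senses blood calcium, spread widely within groups. It was at 33.9, 27.5, 22.2 and 40.7 CPM in control mice, 15.0, 40.0, 21.5 and 39.0 in the 10 mg group and 29.3, 22.3, 16.3 and 31.1 in the 20 mg group. The groups overlapped, with log2 differences of -0.11 at 10 mg and -0.33 at 20 mg (SE 0.290 and 0.291, adjusted p 0.976 and 0.83 with edgeR). The lowest value of each treated group belonged to a library of low mitochondrial share. These 4 libraries ranged from 15.0 to 27.5 CPM and the other 8 from 22.2 to 40.7, and without them the log2 difference at 10 mg was 0.29.

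Counted over the 9 members, 0 were called at 10 mg, 1 (Slc8a1) at 20 mg and 0 between the doses, where edgeR called 0.0291%, 0.303% and 0% of all genes tested. At an unadjusted p under 0.05 there were 2 members at 10 mg (Slc8a1 and Calb1), 3 at 20 mg (with Trpv5) and 0 between the doses, against 5.67%, 8.45% and 6.31% of all genes. The groups did not overlap for 1 member in each comparison (Slc8a1 against the control group at either dose, Atp2b1 between the doses), against 3.19%, 5.3% and 3.1% of all genes. Since Slc8a1 entered these counts by selection, 0 of the other 8 members were called in any comparison. Without Slc8a1, 6 of 8 log2 differences were negative at 20 mg with a median of -0.21, while over all genes 47.5% were negative and the median was 0.01. At 10 mg 6 of these 8 were negative with a median of -0.11. Both doses were compared with the same 4 control mice, so their differences are not independent of each other.

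**Figure D3:**
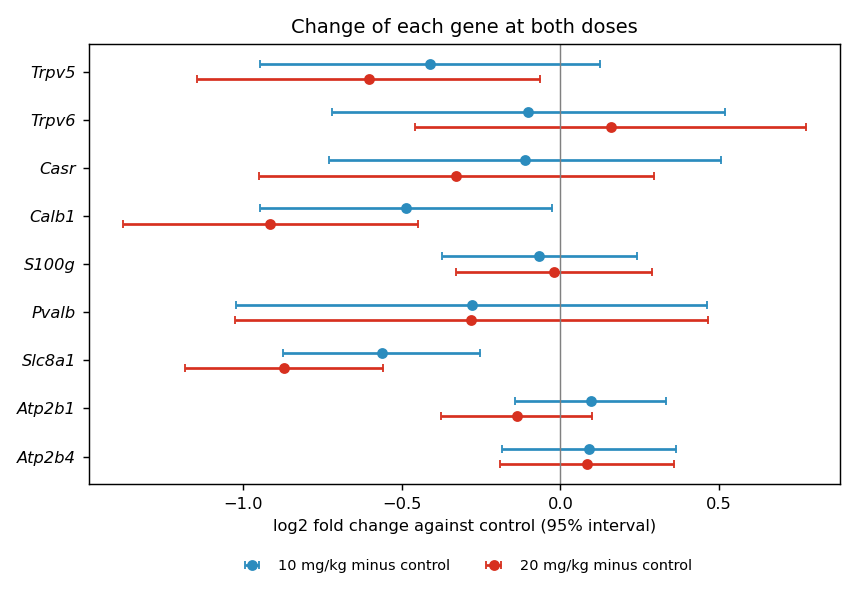
Log2 fold change of each gene against the control group at 10 mg (blue) and 20 mg CBD/kg b.w. (red), with 95% intervals from edgeR. Slc8a1 (-0.56 and -0.87) and Calb1 (-0.49 and -0.91) have intervals below 0 at both doses and Trpv5 (-0.60) at 20 mg, while those of the other 6 genes include 0. The intervals are not adjusted for the number of genes tested, and of these differences only that of Slc8a1 at 20 mg, on which it was selected, was called.

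Levels were compared between genes per kilobase of the canonical transcript. In the control group S100g stood far above the rest at 1491 ± 243 CPM per kilobase (SD, n = 4). It was followed by Calb1 (41.6 ± 14.7), Slc8a1 (26.7 ± 2.66), Atp2b1 (12.8 ± 1.02), Casr (8.50 ± 2.19), Pvalb (4.95 ± 2.07), Trpv5 (2.54 ± 0.722), Atp2b4 (1.76 ± 0.113) and Trpv6 (0.420 ± 0.133). The neighbours Calb1 and Slc8a1, Casr and Pvalb, Pvalb and Trpv5, and Trpv5 and Atp2b4 had ranges over the 4 control mice that met. The order depends on the length used: with all annotated exons (18996 bases for Slc8a1 against 3265 in its canonical transcript), Slc8a1 is in place 4 behind Atp2b1, and Casr in place 6 behind Pvalb.

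Ratios within a library set the members against another gene of the distal tubule, which need not be of the same cells. The ratio of Slc8a1 to S100g was 0.109 to 0.140 in the control group, 0.0678 to 0.0981 at 10 mg and 0.0595 to 0.0830 at 20 mg. That of Calb1 to S100g was 0.165 to 0.380, 0.172 to 0.223 and 0.125 to 0.143, in the same order. Relative to S100g, Calb1 in all mice of the 20 mg group was below its range in both other groups, but relative to Slc12a3, the thiazide-sensitive sodium-chloride cotransporter that marks the distal convoluted tubule, its ratio overlapped between all groups (0.193 to 0.362, 0.178 to 0.238 and 0.155 to 0.247). For Trpv5 the ratio to S100g overlapped between the groups, with log2 means of -6.48, -6.81 and -7.06. Set against Slc12a3, the mean log2 ratio of Slc8a1 was -2.98 ± 0.18 (SD, n = 4) in the control group, -3.37 ± 0.17 at 10 mg and -3.40 ± 0.16 at 20 mg. The ratio of S100g to Slc12a3 was 0.928 to 1.17 in the control group and 1.24 to 1.76 at 20 mg. No test was made on these ratios, which follow the selection of Slc8a1.

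**Figure D4:**
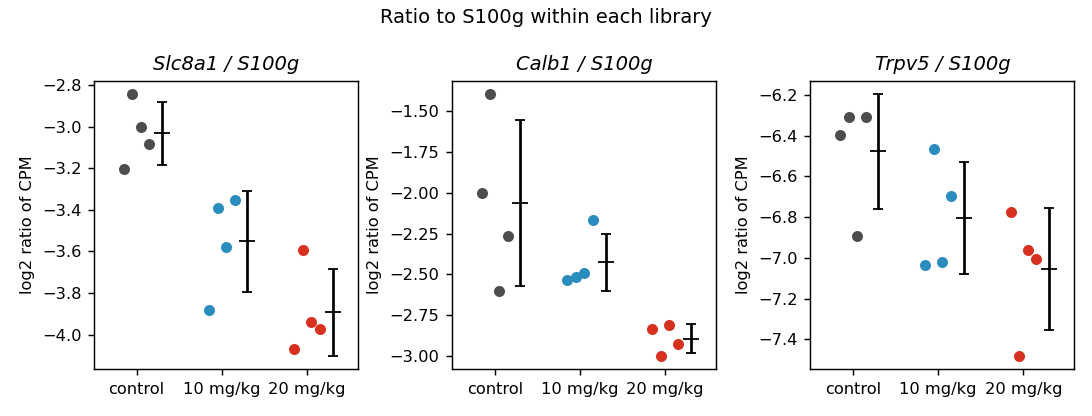
Log2 ratio of the CPM of Slc8a1, Calb1 and Trpv5 to that of S100g within each library, by group, with mean ± SD of 4 mice (the axes do not start at 0). For Slc8a1 the group means step from -3.03 to -3.55 and -3.89, and for Calb1 the 20 mg group is narrow around -2.89.

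Some pairs of members varied together from mouse to mouse and others ran opposite. Examples are given over 12 libraries as a description of log2 CPM that share depth and composition. Trpv5 and Calb1 had a Pearson r of 0.81, and 0.71 once group means were removed. Calb1 and Slc8a1 had an r of 0.78, and 0.46 without group means. Slc8a1 and Casr had an r of 0.62, which was 0.82 without group means, and Pvalb and Casr ran opposite to each other (-0.62, and -0.73 without group means). So did Slc8a1 and Atp2b4 (-0.49, and -0.61 without group means) and the channels Trpv5 and Trpv6 (-0.48 and -0.46). Over all genes tested, those most like Slc8a1 were Arrdc3 (r = 0.94, and 0.79 without group means), Itga6 (0.94 and 0.74), Gatm (0.93 and 0.67), Mtr (0.92 and 0.69) and Epg5 (0.91 and 0.81). The genes most like Calb1 were Dennd2b (0.96, and 0.95 without group means), Ddit4l (0.92 and 0.85) and Cilp (0.91 and 0.83). Cilp was low, with means of 0.73 CPM in the control group and 0.26 CPM at 20 mg.

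The wider pathway was read from 41 genes in 5 lists, of which 35 were tested. At 20 mg 1 of 35 was called and 4 had an unadjusted p under 0.05, at 10 mg 0 and 2, and between the doses 0 and 2. Over all genes tested, 0.303%, 0.0291% and 0% were called in the same order. An unadjusted p under 0.05 (edgeR) was found for 8.45%, 5.67% and 6.31% of them, so the counts of the lists lay near these shares. Their median log2 difference at 20 mg was -0.04. The called gene was Cyp24a1, the hydroxylase that breaks down active vitamin D. It averaged 169.9 ± 36.3 CPM (SD, n = 4) in the control group, 75.3 ± 35.0 at 10 mg and 59.9 ± 24.6 at 20 mg. All mice of either treated group (45.3 to 124.5 and 34.8 to 93.6 CPM) were below the control mice (128.8 to 216.3 CPM). The log2 difference was -1.50 at 20 mg (SE 0.311, adjusted p = 0.0849 with edgeR) and -1.18 at 10 mg (SE 0.308, adjusted p = 0.679 with edgeR). Without the 4 libraries of low mitochondrial share it was -1.44 at 20 mg and -0.76 at 10 mg. The call at 20 mg rested on the full set of mice: the log2 difference stayed between -1.80 and -1.32 when 1 library was left out, but adjusted p ranged from 0.0388 to 0.249 (edgeR) and the call held in 3 of 12 such fits, being lost without any 1 control mouse, without mouse 3 or 4 of the 10 mg group and without mouse 2, 3 or 4 of the 20 mg group.

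Other genes of hormone control did not pass the threshold. Cyp27b1, which activates vitamin D, was at 12.3 ± 6.40 CPM in the control group and 20.4 ± 2.83 at 20 mg (log2 difference 0.73, adjusted p = 0.537, edgeR). Kl, the klotho co-receptor, was at 385 ± 21.5 CPM and 272 ± 70.4 (log2 difference -0.50, adjusted p = 0.391, edgeR). The receptors Vdr and Pth1r had log2 differences of -0.09 and 0.33 (adjusted p 0.927 and 0.772, edgeR). Among the other exchangers and pumps, Atp2b2 had the largest difference (-0.60, adjusted p = 0.526, edgeR), while Slc8a2, Slc8a3, Atp2b3 and Calb2 were too low to be tested. In the lists of channel partners, claudins of the paracellular route and magnesium handling, 0 genes were called. The largest differences there were those of Klk1 (-0.31), Cldn19 (0.26) and the magnesium channel Trpm6 (-0.41), with adjusted p of 0.675, 0.799 and 0.596 (edgeR).

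**Figure D5:**
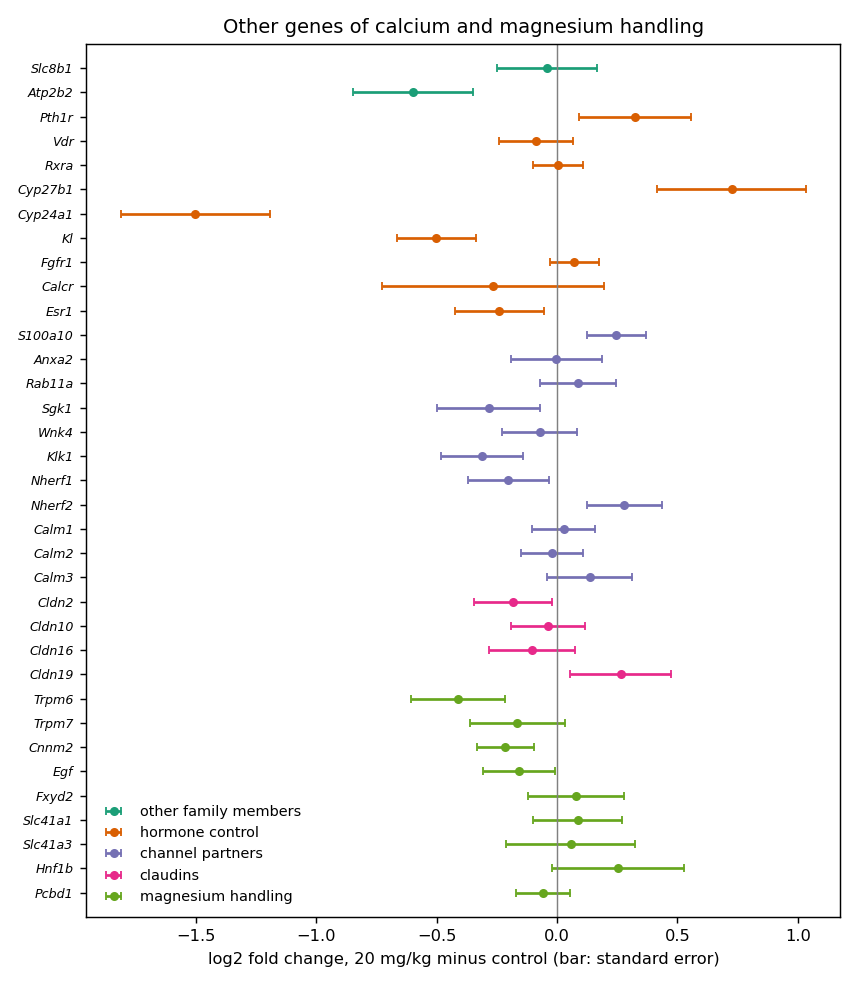
Log2 fold change at 20 mg CBD/kg b.w. against the control group for the 35 tested genes of 5 lists of calcium and magnesium handling, with standard errors from edgeR. Cyp24a1 (-1.50) stands farthest from 0, followed by Cyp27b1 (0.73), Atp2b2 (-0.60) and Kl (-0.50).

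Markers of several segments, the distal convoluted tubule among them, had lower levels on average in the 20 mg group. Over all genes tested at 20 mg, 47.5% of log2 differences were negative, 8.45% had an unadjusted p under 0.05 and 0.303% were called. All 7 distal convoluted tubule genes had negative log2 differences at 20 mg (median -0.19), 2 of them at an unadjusted p under 0.05 (Slc12a3, -0.48, and Wnk1, -0.36) and 0 called. Their summed level was 1768 to 2312 CPM in the control group, 1515 to 2011 at 10 mg and 1419 to 1816 at 20 mg. Of the 7 genes of connecting tubule and collecting duct principal cells, 2 were negative (median 0.08), with sums of 351 to 526, 415 to 545 and 380 to 546 CPM. The part of these levels in the values of Slc8a1, Calb1 and Trpv5 was not tested. Of 7 proximal tubule genes 6 were negative (median -0.23), with sums of 7979 to 9695 CPM in the control group, 7216 to 9211 at 10 mg and 6647 to 8158 at 20 mg, and 1 was called, the glucose transporter Slc5a2 (-0.61, adjusted p = 0.082, edgeR), a call that held in 4 of 12 fits with 1 library left out (adjusted p 0.0889 to 0.273, lost without any 1 mouse of the control or 20 mg group). Of 5 intercalated cell genes 4 were negative (median -0.29), 2 of them at an unadjusted p under 0.05 and 0 called, with sums of 305 to 388, 286 to 321 and 293 to 309.8 CPM. Thick ascending limb genes were negative in 4 of 5 (median -0.10) and inner medulla genes in 3 of 6 (median 0.14), with 0 called. For all 6 segment lists the sums overlapped between the groups. Of the smooth muscle genes, Myh11 was higher at 20 mg (0.71, adjusted p = 0.076, edgeR), and the sum was 106 to 123 CPM in the control group and 145 to 206 at 20 mg. Its part in the level of Slc8a1, which smooth muscle also expresses, was not tested. The call of Myh11 held in 3 of 12 fits with 1 library left out (adjusted p 0.0623 to 0.263, lost without any 1 control mouse, mouse 3 or 4 of the 10 mg group, or mouse 2, 3 or 4 of the 20 mg group). Podocyte, endothelial and adrenal cortex genes held 0 calls at either dose.

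Of 10 clock genes, 7 were called at 20 mg, with Dbp, Per3, Nr1d1, Nr1d2 and Ciart higher and Bmal1 and Npas2 lower, and 3 at 10 mg (Dbp, Per3 and Npas2). Over all genes tested, 0.303% were called at 20 mg and 0.0291% at 10 mg. Dbp went from 2.36 CPM in the control group to 15.7 at 10 mg and 24.0 at 20 mg (adjusted p = 1.88e-05 and 1.31e-06, edgeR), and Bmal1 was at 22.0, 10.8 and 9.53 CPM (adjusted p = 0.229 at 10 mg, not called, and 0.034 at 20 mg, edgeR, the latter up to 0.11 with 1 library left out). The time of day at which kidneys were taken is not given in the sources used here, and its part in the levels of the calcium genes was not tested.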

How the data were processed

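Poly(A) RNA of 12 kidneys was sequenced as paired reads from directional libraries, 1 per mouse. The authors mapped the reads with STAR 2.7.5c to GRCm39 and counted them with HTSeq 1.99.2, as the submitters' processing notes name them, and the deposited files hold raw counts per Ensembl gene, without normalization. The 5 summary lines per file were left out. Symbols came from GENCODE vM39, which held 99.0% of identifiers and 99.95% of counts. No pair of libraries was identical.

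For comparison of counts, edgeR 4.0.16 (R 4.3.3) was used. Genes were filtered by filterByExpr (17163 left), normalized by TMM, and fitted by a quasi-likelihood model with a mean per group on all 12 libraries. P-values were adjusted by Benjamini-Hochberg over all genes, with calls under 0.1, the threshold of the study's methods. Log2 CPM used a prior count of 2, on which two-sided exact permutation tests (70 arrangements) were run for single genes. P-values set the difference between groups against the spread between mice. What the mice of a group shared beyond the dose is not part of that spread. The scripts were tested on simulated data. The members and gene lists were chosen with earlier results of these data known. Named genes were all members, every called gene of the lists, the tested gene with the largest difference at 20 mg in each list of calcium and magnesium handling, and the 5 and 3 genes most like Slc8a1 and Calb1. Others (Cyp27b1, Kl, Vdr, Pth1r, Slc12a3, Wnk1, and the genes too low to test) were named after their values were seen. Alternatives were RLE scaling, DESeq2 1.42.0, limma-voom (limma 3.58.1), no filter, only the groups compared, a replicate block, the mitochondrial share as a covariate, mitochondrial genes removed, a threshold of 0.05 and leaving out each library. Leaving out the 4 libraries under 10% mitochondrial counts was added after seeing the data.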

Additional observations from a re-analysis of the deposited data

Results flagged for a closer look

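Within groups of 4 mice, 1 of 27 sets of member values had a mouse set apart by Dixon's criterion, where chance gives about 1 in 20. Trpv6 was at 0.65 CPM in control mouse 4, against 1.36 to 1.48 CPM in the other control mice. The gap took 0.856 of the range of the group.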

How the results depend on the processing

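Over 22 alternatives the log2 difference of Slc8a1 at 20 mg stayed between -0.96 and -0.77, and that of Calb1 between -1.12 and -0.68. The number of members called at 20 mg was 2 with DESeq2, with no filter and with the mitochondrial share as a covariate, where Calb1 joined Slc8a1 (adjusted p 0.0134, 4.58e-06 and 0.0318), and 0 to 2 when 1 library was left out. At 10 mg it was 1 with no filter (Slc8a1, adjusted p = 0.0308) and 0 otherwise. Between the doses it was 0 in all settings run. With no filter the SE of Calb1 at 20 mg was 0.160, against 0.217 in the main fit. At 10 mg that of Casr was 0.163 against 0.290 and that of Pvalb 0.180 against 0.348, while that of S100g was 0.173 against 0.144. For Slc8a1 at 10 mg, called with no filter, the SE was 0.157 against 0.146. The setting thus gave smaller SEs for Calb1, Casr and Pvalb and larger ones for S100g and Slc8a1. Its adjusted p is taken as no added support for a call.

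Genes called over all genes depended on the setting. At 10 mg there were 5, against 40 with DESeq2, 331 with no filter, 15 with the mitochondrial share as a covariate, 3 at an adjusted p under 0.05, 26 without the 4 libraries of low mitochondrial share and 2 to 8 with 1 library left out. At 20 mg there were 52, against 182, 416, 1386, 23, 107 and 14 to 54 in the same order. Between the doses there were 0 (1083 at an unadjusted p under 0.05), against 12 with DESeq2, 256 with no filter and 62 with the covariate. The cause was not tested.

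Replicate numbers gave no clear sign of pairing. The correlation of deviations had a median of 0.03 for equal numbers and -0.02 for different ones. It was over 0.1 in 4 of 12 equal pairs and 13 of 36 different ones. Such correlations cannot exclude a handling shared by mice of equal number. With the replicate number as a block 27 genes were called at 20 mg, Slc8a1 among them (-0.88, adjusted p = 0.0278), and no member's call changed, while Cyp24a1, Slc5a2 and Myh11 were no longer called (adjusted p 0.138, 0.206 and 0.138). Dbp and Bmal1 kept their direction against the control group in all settings run. At 10 mg Bmal1, uncalled in the main fit, was called in 5 of 22 alternatives, DESeq2 among them (adjusted p = 0.00232). Cyp24a1 was called there in 2, DESeq2 (adjusted p = 0.0734) and no filter.

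Signs turned for members near 0, all uncalled. Without the 4 libraries of low share the log2 difference at 10 mg was -0.034 for Atp2b1, -0.015 for Atp2b4 and 0.29 for Casr, that of S100g at 20 mg was 0.0001, and those between the doses were 0.18 for Pvalb and 0.038 for Atp2b4. Between the doses Pvalb was at 0.0086 with no filter, 0.0001 with only the groups compared and 0.40 with the covariate. Atp2b4 was at 0.0076 with no filter and 0.13 with the covariate, and S100g at -0.0086 with the covariate. With 1 library left out, the ranges were -0.15 to 0.020 for S100g and -0.31 to 0.10 for Casr at 10 mg, and -0.10 to 0.067 for S100g, -0.045 to 0.25 for Trpv6 and -0.013 to 0.14 for Atp2b4 at 20 mg. Between the doses they were -0.36 to 0.18 for Pvalb, -0.10 to 0.063 for Atp2b4 and -0.012 to 0.11 for S100g. Counts of Trpv6 were low, at 12 to 34 per library.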
